A study of Arabidopsis thaliana with 12 samples.

Results

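Sugar transporter genes of 3 families, the STP hexose/proton symporters, the SWEET sugar uniporters and the SUC sucrose/proton symporters, were examined in whole seedlings of Arabidopsis thaliana. The members were all genes of the deposited table whose symbol consists of STP, SWEET or SUC followed by a number. This rule found 29 of 23739 genes, namely 9 STP, 14 SWEET and 6 SUC genes. There were 4 groups of 3 libraries each, and all seedlings were 10 days old, had been grown on sucrose-containing medium and were pooled for each library. The groups were the double mutant ate1-2 ate2-1 (a1a2) treated for 1 h with 1 µM flg22, mock-treated a1a2, flg22-treated wild-type Col-0 and mock-treated Col-0, with an equal volume of water as the mock treatment. The a1a2 mutant lacks the arginyl transferases ATE1 and ATE2 of the Arg/N-degron pathway, and flg22 is a peptide of bacterial flagellin that elicits pattern-triggered immunity. The comparisons address how the transporter genes responded to flg22 in each genotype and whether they differed between the genotypes. Because whole seedlings were sampled, fewer cells of a type and less RNA per cell cannot be told apart.

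STP proteins import hexoses from the cell wall space together with protons, and SUC proteins import sucrose in the same way. SWEET proteins let sugars move along their gradient in either direction, at the plasma membrane or the tonoplast. In a leaf, SWEET11 and SWEET12 release sucrose into the cell wall space and SUC2 loads it into the phloem. Sugar release and retrieval at the cell surface are also known from plant-microbe contacts, because microbes in the cell wall space feed on the sugars found there.

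The libraries held 20285662 to 22433536 counts. Of these, 0.0705% to 0.1086% belonged to the members. Libraries with the same replicate number resembled each other across groups, so values of a second fit with the replicate number as a block are given wherever they changed a call. ATE1 was at 2.19 to 4.22 CPM (counts scaled to a common library size) in a1a2 and at 20.7 to 28.4 CPM in Col-0. ATE2 was at 0.148 to 0.513 CPM in a1a2 and at 4.68 to 6.73 CPM in Col-0. The flg22 marker gene FRK1 was at 5.67 to 37.2 CPM in flg22-treated and 0.263 to 9.95 CPM in mock-treated a1a2, and at 11.4 to 89.1 CPM in flg22-treated and 0.929 to 9.26 CPM in mock-treated Col-0. Its levels overlapped between the treatments in a1a2, yet it was higher after flg22 within each replicate number of both genotypes. FRK1 changed by a log2 fold change of 2.36 ± 1.24 in a1a2 and 3.15 ± 1.26 in Col-0 (SE, edgeR adjusted p = 0.199 and 0.0877), and with the block by 2.79 ± 0.49 and 3.05 ± 0.47 (SE, edgeR adjusted p = 8.81e-04 and 3.40e-04). Leaf and root marker genes were expressed in all 12 libraries, with summed levels of 18038 to 40180 and 2993 to 4866 CPM. The root sum was nearly all PYK10, at 2961 to 4825 CPM. The root markers EXPA7, COBL9 and SHR were at 4.54 to 15.7 CPM. The 2 pollen markers in the table summed to at most 0.202 CPM.

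Of the 29 members, 19 passed the filter on low counts and were tested, which were 6 STP, 9 SWEET and 4 SUC genes. Those not tested were STP2, STP6, STP9, SUC6, SUC9, SWEET3, SWEET4, SWEET6, SWEET7 and SWEET8. STP9 had the most reads among these, with 80 counts over all 12 libraries and at most 13 in one of them. SWEET4 had 62 counts and SWEET3 24 counts over all libraries, and the other 7 untested members had at most 6 counts each. Transcripts of these 7 genes were thus close to or below what can be measured at this depth.

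Levels of the tested genes were compared with each other as CPM per kb of the longest annotated transcript, and they spanned more than 3 orders of magnitude. SUC1, a sucrose importer known from roots, trichomes and pollen, had the highest mean in flg22-treated seedlings, with 219 ± 61.6 CPM per kb in a1a2 and 182 ± 77.6 CPM per kb in Col-0 (SD, n = 3). In flg22-treated a1a2, STP4 followed with 88.9 ± 27.0, SWEET11 with 67.7 ± 13.1, SUC2 with 55.8 ± 6.19 and STP1 with 39.1 ± 18.5 CPM per kb (SD, n = 3). Neighbours among these 4 differed by less than the sum of their SDs. In mock-treated seedlings the top of the order was shared by SUC1 and SWEET11, with 84.9 ± 15.5 and 80.1 ± 9.57 CPM per kb in a1a2 and 68.0 ± 7.31 and 88.7 ± 16.9 CPM per kb in Col-0 (SD, n = 3). The 5 highest members held 84.1% of the summed level per kb in flg22-treated and 75.7% in mock-treated a1a2, and 82.7% in flg22-treated and 71.1% in mock-treated Col-0. At the lower end of the tested genes, STP11 had 0.127 ± 0.0948 CPM per kb in flg22-treated a1a2 (SD, n = 3).

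**Figure D1:**
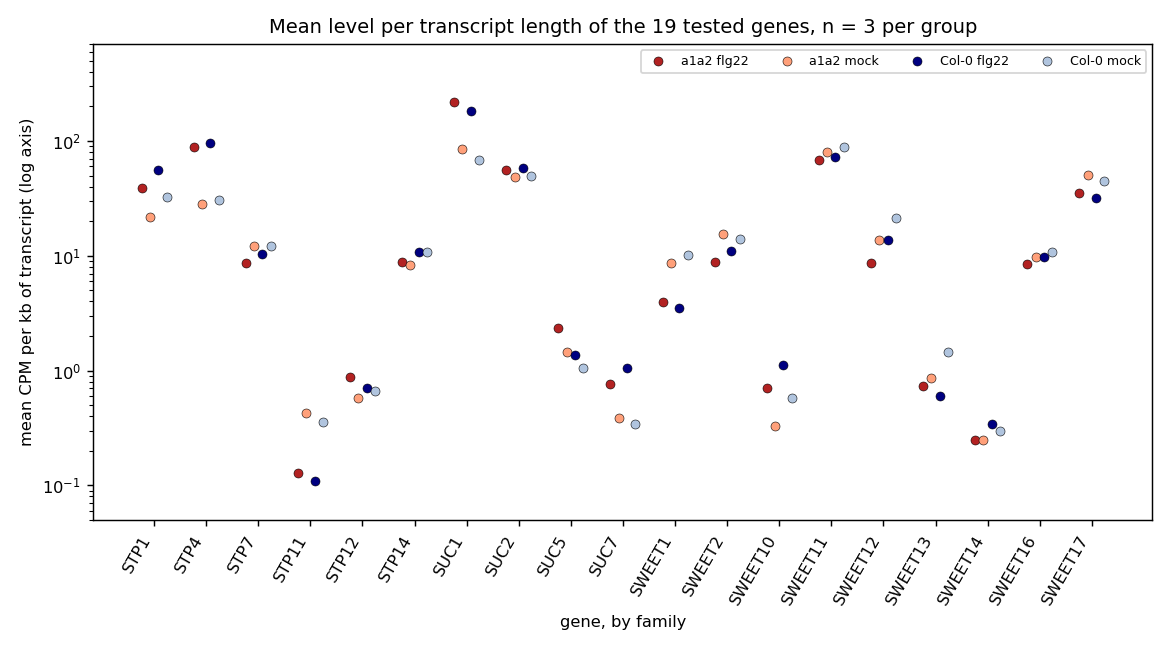
Mean level of each of the 19 tested genes, in CPM per kb of the longest annotated transcript on a log axis, ordered by family along the x axis. Each point is the mean of the 3 libraries of a group, red for a1a2 and blue for Col-0 with the darker shade for flg22. SUC1 is the highest gene in flg22-treated a1a2 (219 CPM per kb) and STP11 the lowest (0.127 CPM per kb).

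Summed over all members, the transporters were at 1136 ± 5.50 CPM in flg22-treated and 702 ± 40.2 CPM in mock-treated a1a2 (SD, n = 3). In Col-0 the sums were 1140 ± 73.2 CPM after flg22 and 721 ± 48.8 CPM in mock (SD, n = 3). The families contributed differently to these sums. SUC genes together had 604 ± 123 CPM in flg22-treated and 290 ± 36.5 CPM in mock-treated a1a2, and 527 ± 194 against 254 ± 18.4 CPM in Col-0 (SD, n = 3). Most of this difference was SUC1, with means of 484 against 188 CPM in a1a2 and 402 against 150 CPM in Col-0. SUC2 had means of 114 against 99.4 CPM in a1a2 and 120 against 101 CPM in Col-0. STP genes had 347 ± 117 against 164 ± 44.4 CPM in a1a2 and 412 ± 143 against 202 ± 46.3 CPM in Col-0 (SD, n = 3). For the SWEET genes the order was the opposite, with 186 ± 11.7 CPM in flg22-treated and 248 ± 5.57 CPM in mock-treated a1a2, and 201 ± 7.37 against 265 ± 22.9 CPM in Col-0 (SD, n = 3). No SWEET sum of a flg22-treated library reached that of a mock-treated library. The largest parts of this difference were SWEET11 and SWEET17. SWEET11 had means of 93.9 against 111 CPM in a1a2 and 99.9 against 123 CPM in Col-0. SWEET17 had means of 44.9 against 65.2 CPM in a1a2 and 41.4 against 57.7 CPM in Col-0. Family genes that the table lists under other symbols, such as SUC3 and STP13, are not part of the sums. These sums were not tested.

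After flg22, STP4 and SUC1 rose and STP11 and SWEET1 fell in both genotypes. Those were the 4 differentially expressed genes (DEGs) among the 19 tested members, for which both an adjusted p below 0.05 and at least a 1.5-fold change were required. Over all 20439 tested genes, 21.2% were DEGs after flg22 in a1a2 and 21.0% in Col-0, so the share among the transporters was close to the background. By direction, 13.9% of all genes rose in each genotype, and 7.29% fell in a1a2 and 7.06% in Col-0. The median log2 fold change of the members was 0.03 in a1a2 and -0.00 in Col-0, beside -0.00 and -0.01 over all genes. It was -0.24 in a1a2 and -0.35 in Col-0 over the 9 SWEET genes, 0.83 and 0.89 over the 4 SUC genes, and 0.36 and 0.05 over the 6 STP genes. All 4 SUC genes had positive fold changes in both genotypes, and 2 of the 9 SWEET genes did. In the 2 flg22 comparisons, 18 of the 19 members had the same sign. The comparisons use different libraries but are not independent, because libraries with the same replicate number resembled each other. How often the signs were equal over all genes was not counted. Groups did not overlap in CPM for 10 members in a1a2 and 6 in Col-0, while this held for 41.9% and 39.4% of all tested genes.

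**Figure D2:**
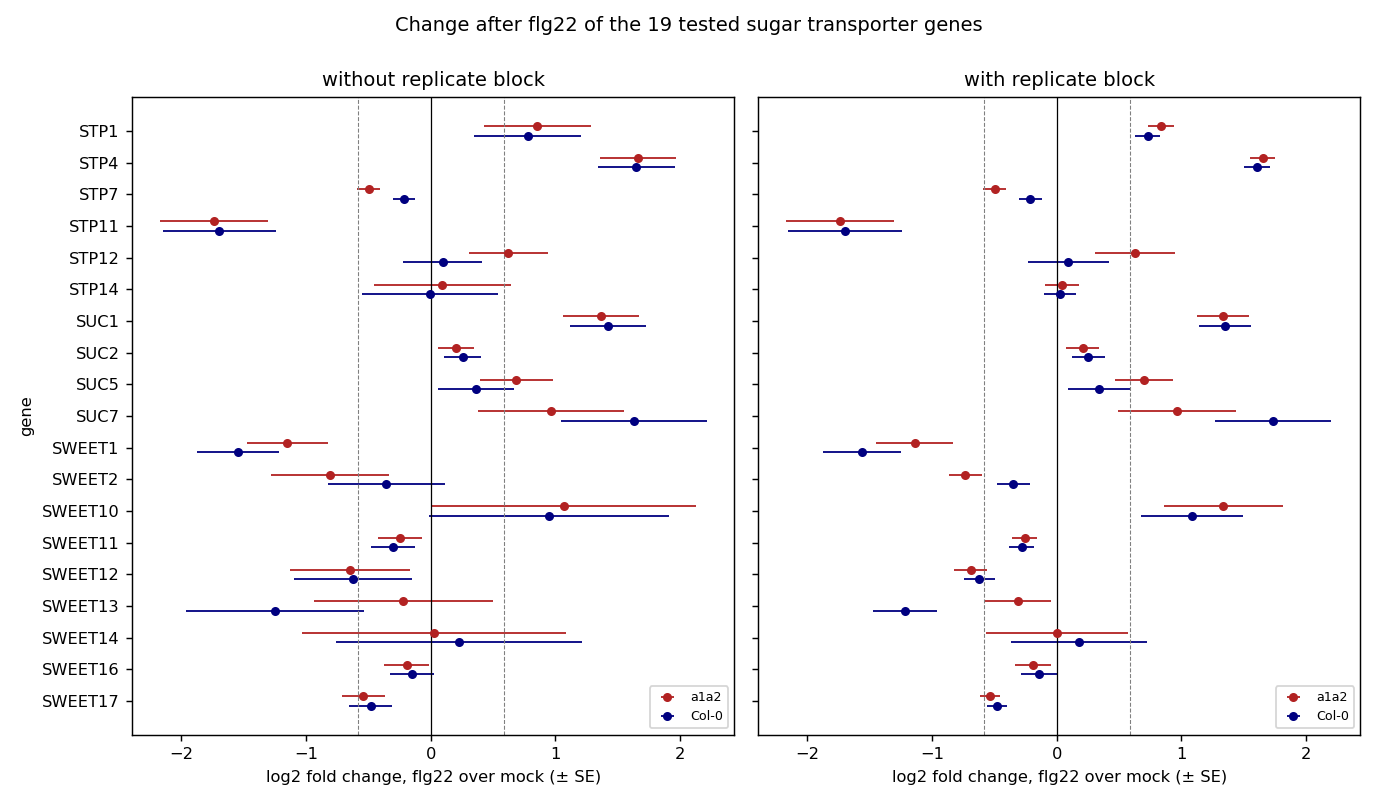
Log2 fold change of flg22-treated over mock-treated seedlings for the 19 tested genes, in a1a2 (red) and Col-0 (blue), without the replicate block on the left and with it on the right. Points are the fitted values, bars the SE and dashed lines the 1.5-fold limits; STP4 and SUC1 lie to the right and STP11 and SWEET1 to the left of these limits in both genotypes, and the bars of STP1 (SE 0.43 and 0.10 in Col-0) are shorter with the block.

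STP4 (AT3G19930) encodes a hexose importer of sink tissues that is known to respond to wounding and pathogens. In a1a2, it was at 270, 222 and 143 CPM in the flg22-treated and 84.6, 67.8 and 48.3 CPM in the mock-treated replicates 1, 2 and 3. In Col-0, it was at 283, 259 and 143 CPM after flg22 and at 85.3, 73.3 and 59.3 CPM in mock. Every flg22-treated library was above every mock-treated library, and replicate 3 was the lowest of its group in all 4 groups. STP4 rose 3.16-fold in a1a2 (log2 fold change 1.66 ± 0.31 SE, edgeR adjusted p = 0.00169) and 3.14-fold in Col-0 (1.65 ± 0.31 SE, edgeR adjusted p = 0.00182). It remained a DEG without any single library.

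STP1 (AT1G11260), a hexose importer that takes up glucose in seedlings and guard cells, moved in the same direction but varied more among replicates. Its levels were 149, 81.6 and 60.8 CPM in flg22-treated and 76.1, 50.8 and 33.7 CPM in mock-treated a1a2. They were 197, 144 and 76.1 CPM in flg22-treated and 107, 80.3 and 55.7 CPM in mock-treated Col-0. The treatments thus overlapped, whereas within each replicate number the flg22-treated library was the higher one. STP1 was not a DEG, with log2 fold changes of 0.86 ± 0.43 in a1a2 and 0.78 ± 0.43 in Col-0 (SE, edgeR adjusted p = 0.177 and 0.216). With the replicate block, it was a DEG with 0.84 ± 0.10 in a1a2 and 0.73 ± 0.10 in Col-0 (SE, edgeR adjusted p = 3.34e-05 and 1.05e-04), and this held without any single library. AT1G11270, which overlaps STP1 on the opposite strand, was at group means of 2.54 to 3.42 CPM and was not a DEG. STP1 was the only member with fractional deposited counts, and how its reads were assigned is not given in the sources used here.

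STP11 (AT5G23270), known as a transporter of pollen tubes, was found at trace levels and fell. It had 0.202, 0.469 and 0.0987 CPM in flg22-treated and 0.750, 0.701 and 1.14 CPM in mock-treated a1a2. In Col-0 there were 0.206, 0.206 and 0.243 CPM after flg22 and 0.647, 0.664 and 0.849 CPM in mock. Groups did not overlap in either genotype, but the values rest on 2 to 26 counts per library. The log2 fold change was -1.74 ± 0.43 in a1a2 and -1.69 ± 0.45 in Col-0 (SE, edgeR adjusted p = 0.0108 and 0.0153). The call in Col-0 was lost without flg22-treated replicate 2 (log2 fold change -1.66, edgeR adjusted p = 0.0522). In a1a2, STP11 remained a DEG without any single library, but its log2 fold change was -2.48 without flg22-treated replicate 2.

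STP7 (AT4G02050), a transporter of the pentoses arabinose and xylose, had the smallest SD relative to its mean of the tested STP genes in every group. It was at 17.9, 16.6 and 17.7 CPM in flg22-treated and 23.1, 26.6 and 24.0 CPM in mock-treated a1a2, and at 22.9, 19.8 and 20.4 CPM in flg22-treated and 24.3, 25.5 and 23.4 CPM in mock-treated Col-0. Flg22-treated libraries were below mock-treated ones in both genotypes without overlap. The change passed the adjusted p but not the fold threshold in a1a2 (-0.50 ± 0.09 SE, edgeR adjusted p = 0.00166) and passed neither in Col-0 (-0.21 ± 0.09 SE, edgeR adjusted p = 0.112). With the block, it passed both in a1a2 without mock-treated replicate 1 (-0.60). STP7 shares its locus with AT4G02040 and PRL on the opposite strand, and PRL was at group means of 21.1 to 30.2 CPM. STP12 was at 0.619 to 1.49 CPM and STP14, a galactose transporter, at 6.86 to 32.5 CPM, and neither was a DEG in any comparison with or without the block.

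SUC1 (AT1G71880) was the most abundant member after flg22. It was at 346, 488 and 618 CPM in flg22-treated and 193, 151 and 219 CPM in mock-treated a1a2. In Col-0, 233, 397 and 576 CPM were measured after flg22 and 148, 135 and 167 CPM in mock. All flg22-treated libraries lay above all mock-treated ones, and replicate 3 was the highest of each group, the reverse of the pattern in STP4. SUC1 rose 2.58-fold in a1a2 (log2 fold change 1.37 ± 0.30 SE, edgeR adjusted p = 0.00532) and 2.68-fold in Col-0 (1.42 ± 0.30 SE, edgeR adjusted p = 0.0043), and it remained a DEG without any single library. Within replicate numbers 1, 2 and 3, the log2 ratio of flg22 to mock was smallest for replicate 1, with 0.84 in a1a2 and 0.65 in Col-0, and reached 1.69 in a1a2 and 1.78 in Col-0.

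SUC2 (AT1G22710), the companion cell symporter that loads sucrose into the phloem, showed little change. Its levels were 128, 113 and 103 CPM in flg22-treated and 98.2, 98.3 and 102 CPM in mock-treated a1a2, and 96.9, 124 and 140 CPM in flg22-treated and 85.5, 113 and 103 CPM in mock-treated Col-0. The groups did not overlap in a1a2, by a margin of under 1 CPM, and overlapped in Col-0. The log2 fold change was 0.20 ± 0.15 in a1a2 and 0.26 ± 0.15 in Col-0 (SE, edgeR adjusted p = 0.362 and 0.236). Summed phloem markers (APL, NAKR1 and SEOR1) were at 56.2 to 65.4 CPM in flg22-treated and 49.2 to 51.8 CPM in mock-treated a1a2. In Col-0 the sum was at 62.3 to 64.4 CPM after flg22 and 50.6 to 59.9 CPM in mock. SEOR1, at 23.7 to 36.2 CPM, was the largest part of the sum. The treatments overlapped for SEOR1 in both genotypes and for APL in Col-0 only, and did not overlap for NAKR1. The part of these markers in the result was not tested.

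The 2 other tested SUC genes were at low levels. SUC5 (AT1G71890), a sucrose and biotin transporter known from the endosperm, was at 3.68, 4.54 and 4.79 CPM in flg22-treated and 3.20, 1.66 and 3.19 CPM in mock-treated a1a2, and at 1.90, 2.01 and 3.64 CPM against 1.94, 1.81 and 2.12 CPM in Col-0. In a1a2 its log2 fold change was 0.69 ± 0.29 (SE, edgeR adjusted p = 0.106), and with the block it was a DEG (0.70 ± 0.23 SE, edgeR adjusted p = 0.0291). That call was lost without flg22-treated replicate 2 or mock-treated replicate 2 (edgeR adjusted p = 0.146 for both) or mock-treated replicate 3 (0.0860). SUC7 (AT1G66570) was at 2.37, 0.834 and 0.789 CPM in flg22-treated and 1.14, 0.613 and 0.262 CPM in mock-treated a1a2, and at 1.54, 1.96 and 2.04 CPM against 0.728, 0.841 and 0.212 CPM in Col-0. Its change in Col-0 (1.63 ± 0.59 SE, edgeR adjusted p = 0.0590) passed the threshold with the block (1.74 ± 0.47 SE, edgeR adjusted p = 0.0104), except without mock-treated replicate 1 (0.0618). The SUC genes are close relatives in sequence, and how reads shared between them were assigned is not given in the sources used here. The deposited values of SUC1, SUC5 and SUC7 were whole numbers in every library. Shared reads may have been left out or assigned whole, so the values of SUC5 and SUC7 beside the abundant SUC1 are uncertain.

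**Figure D3:**
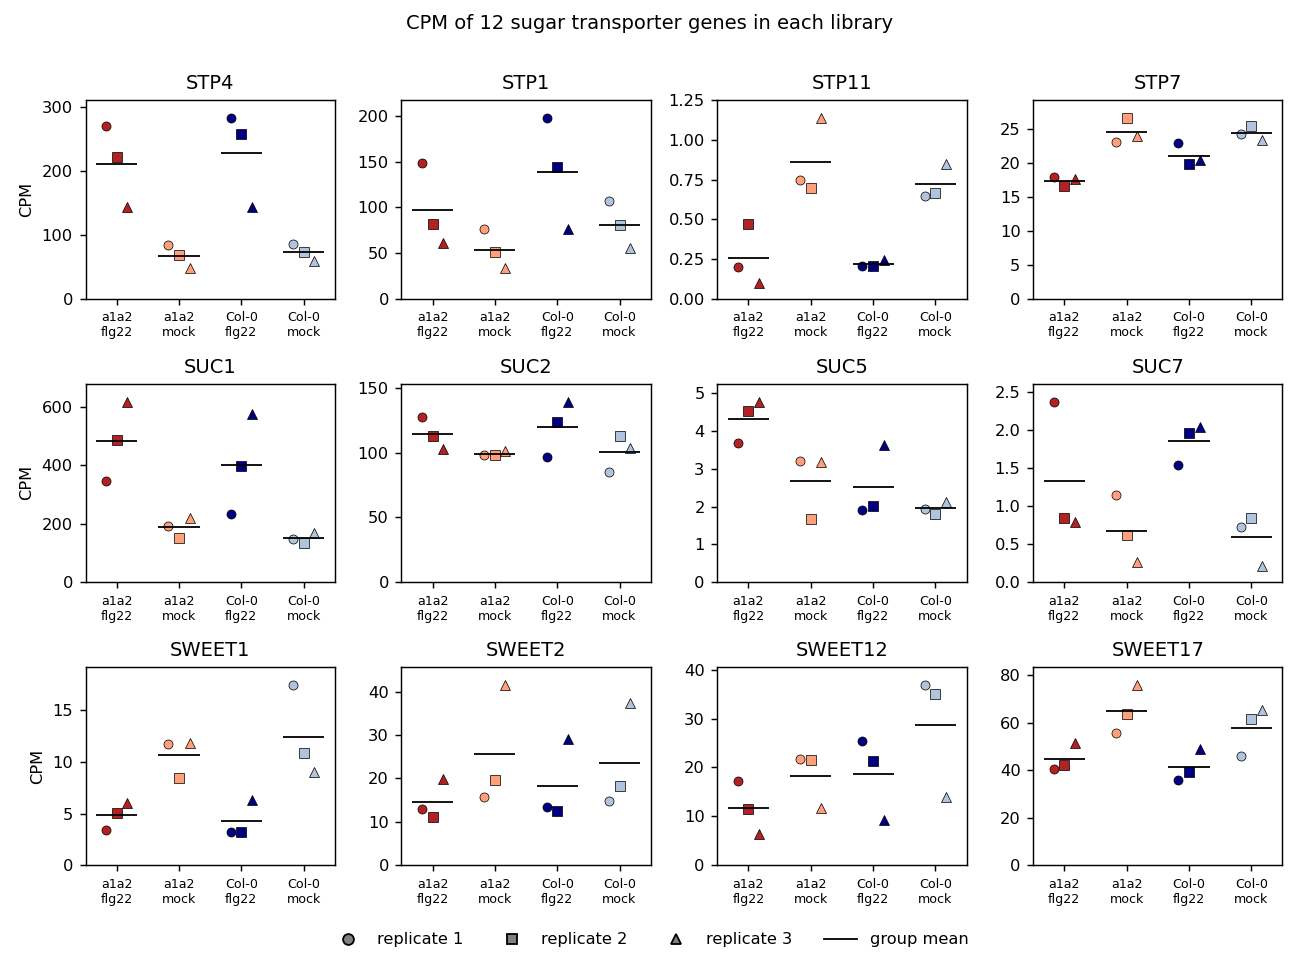
CPM of 12 sugar transporter genes in every library, with a linear y axis from 0 in each panel and the groups along the x axis. Symbols mark the replicate number and horizontal lines the mean of the 3 libraries; STP4 is at 143 CPM or more in each flg22-treated library and at most at 85.3 CPM in mock, and replicate 3 (triangles) is the lowest library of each group for STP1, STP4 and SWEET12 and the highest for SUC1, SWEET2 and SWEET17.

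Among the SWEET genes, SWEET1 (AT1G21460), a glucose transporter of the plasma membrane, fell. It was at 3.38, 5.06 and 6.02 CPM in flg22-treated and 11.7, 8.45 and 11.8 CPM in mock-treated a1a2. In Col-0 it was at 3.24, 3.25 and 6.32 CPM after flg22 and at 17.5, 10.8 and 9.05 CPM in mock. Flg22-treated and mock-treated libraries did not overlap in either genotype. SWEET1 was 2.21-fold lower after flg22 in a1a2 (log2 fold change -1.15 ± 0.33 SE, edgeR adjusted p = 0.0213) and 2.91-fold lower in Col-0 (-1.54 ± 0.33 SE, edgeR adjusted p = 0.00424). The call in Col-0 held without any single library. In a1a2 it was lost without flg22-treated replicate 1 (-0.99, edgeR adjusted p = 0.0776), flg22-treated replicate 2 (0.0566), mock-treated replicate 1 (0.0536) or mock-treated replicate 3 (0.0624), and with the block only without flg22-treated replicate 1 (0.0561). SWEET1 overlaps SCL1 on the opposite strand, and SCL1 had group means of 74.6 CPM in flg22-treated and 22.0 CPM in mock-treated a1a2, and 80.2 against 25.7 CPM in Col-0. SCL1 thus moved in the opposite direction, and whether the counting used the strand is not given in the sources used here.

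SWEET11 (AT3G48740) and SWEET12 (AT5G23660) encode the sucrose exporters of phloem parenchyma cells. SWEET11 was the most abundant SWEET gene in every group, at 72.9 to 106 CPM in flg22-treated and 96.5 to 122 CPM in mock-treated a1a2, and at 93.9 to 110 CPM in flg22-treated and 96.0 to 137 CPM in mock-treated Col-0. It was not a DEG, with log2 fold changes of -0.24 ± 0.18 in a1a2 and -0.30 ± 0.18 in Col-0 (SE, edgeR adjusted p = 0.358 and 0.244). SWEET12 was at 17.2, 11.6 and 6.37 CPM in flg22-treated and 21.8, 21.5 and 11.6 CPM in mock-treated a1a2, and at 25.3, 21.3 and 9.18 CPM against 36.9, 35.1 and 13.9 CPM in Col-0. Within each replicate number it was lower after flg22, although the groups overlapped. Its log2 fold change was -0.65 ± 0.48 in a1a2 and -0.62 ± 0.47 in Col-0 (SE, edgeR adjusted p = 0.377 and 0.386). With the block, SWEET12 was a DEG with -0.69 ± 0.13 and -0.62 ± 0.12 (SE, edgeR adjusted p = 0.00104 and 0.00156). These values lie near the fold threshold, and it was no longer passed without flg22-treated replicate 2 (-0.56) or mock-treated replicate 3 (-0.57) of a1a2, and without flg22-treated replicate 3 (-0.57) or mock-treated replicate 2 (-0.53) of Col-0.

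Of the tonoplast members, SWEET17 (AT4G15920), a fructose transporter, was at 40.7, 42.2 and 51.7 CPM in flg22-treated and 55.8, 63.8 and 76.1 CPM in mock-treated a1a2, and at 35.9, 39.4 and 49.0 CPM against 46.2, 61.5 and 65.5 CPM in Col-0. It was lower after flg22 within every replicate number, and groups overlapped only in Col-0. The change was -0.54 ± 0.17 in a1a2 and -0.48 ± 0.17 in Col-0 (SE, edgeR adjusted p = 0.0360 and 0.0579), which is below 1.5-fold in both genotypes. It passed both thresholds without flg22-treated replicate 3 (-0.65) or mock-treated replicate 1 (-0.67) of a1a2, and without flg22-treated replicate 3 (-0.62) or mock-treated replicate 1 (-0.66) of Col-0. With the block, the change was -0.54 ± 0.08 in a1a2 and -0.48 ± 0.08 in Col-0 (SE, edgeR adjusted p = 1.32e-04 and 3.49e-04), again below 1.5-fold, and it passed both thresholds in a1a2 without flg22-treated replicate 1 (-0.62). SWEET16, its close relative, was at 12.1 to 21.6 CPM and was not a DEG (-0.19 ± 0.18 in a1a2 and -0.15 ± 0.18 in Col-0, SE). SWEET2, a glucose transporter of root cell vacuoles, was at 13.0, 11.1 and 19.9 CPM in flg22-treated and 15.8, 19.5 and 41.6 CPM in mock-treated a1a2, and at 13.5, 12.6 and 29.0 CPM against 14.8, 18.4 and 37.4 CPM in Col-0. It was not a DEG (-0.81 ± 0.47 in a1a2 and -0.35 ± 0.47 in Col-0, SE). With the block it fell in a1a2 (-0.73 ± 0.13 SE, edgeR adjusted p = 7.91e-04), but below 1.5-fold without flg22-treated replicate 3 (-0.57). In Col-0 the blocked value was -0.35 ± 0.13 (SE, edgeR adjusted p = 0.0531).

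The remaining tested SWEET genes, SWEET10, SWEET13 and SWEET14, belong like SWEET11 and SWEET12 to the group of sucrose carriers and had at most 3.48 CPM in any library. SWEET13 was at 0.403, 0.573 and 1.83 CPM in flg22-treated and 0.750, 0.744 and 1.79 CPM in mock-treated a1a2, and at 0.514, 0.413 and 1.36 CPM against 0.849, 1.15 and 3.48 CPM in Col-0. Replicate 3 was far above the others in each group. Its log2 fold change was -0.22 ± 0.72 in a1a2 and -1.24 ± 0.71 in Col-0 (SE, edgeR adjusted p = 0.873 and 0.236). With the block it was -0.31 ± 0.27 in a1a2 and a DEG in Col-0 (-1.22 ± 0.26 SE, edgeR adjusted p = 0.00232), which held without any single library. SWEET10 was at 1.46, 0.626 and 0.691 CPM in flg22-treated and 1.11, 0.0876 and 0.0874 CPM in mock-treated a1a2, with a log2 fold change of 1.07 ± 1.06 (SE, edgeR adjusted p = 0.522) and, with the block, 1.34 ± 0.48 (SE, edgeR adjusted p = 0.0412). That call was lost without replicate 2 or 3 of either treatment (edgeR adjusted p = 0.101 to 0.130). Mock-treated replicate 1 of a1a2 stood apart, and without it the log2 fold change was 3.29 and, with the block, 2.42, while without flg22-treated replicate 1 it was 0.54 and, with the block, 2.05. In Col-0, SWEET10 was at 2.93, 0.774 and 0.729 CPM in flg22-treated and 1.78, 0.133 and 0.340 CPM in mock-treated seedlings. The change there was not called, with a log2 fold change of 0.95 ± 0.96 (SE, edgeR adjusted p = 0.530) and, with the block, 1.09 ± 0.41 (SE, edgeR adjusted p = 0.0518). SWEET14 was at 0.0516 to 1.07 CPM and was not a DEG.

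With the replicate block, 9 of the 19 members were DEGs after flg22 in a1a2 and 8 in Col-0, beside 24.8% and 24.6% of all genes. Of these, 5 rose and 4 fell in a1a2, and 4 rose and 4 fell in Col-0, while 15.5% of all genes rose and 9.37% fell in a1a2, and 15.3% rose and 9.27% fell in Col-0. The DEGs were STP1, STP4, STP11, SUC1, SWEET1 and SWEET12 in both genotypes, joined by SUC5, SWEET2 and SWEET10 in a1a2 and by SUC7 and SWEET13 in Col-0. Replicate 3 was the lowest library of all 4 groups for STP1, STP4, STP14 and SWEET12, and the highest of all 4 groups for SUC1, SWEET2, SWEET13, SWEET14 and SWEET17. The same held for 12.8% and 11.9% of all tested genes. What differed between the replicate numbers is not given in the sources used here.

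No sugar transporter was a DEG between a1a2 and Col-0, either after flg22 or in mock-treated seedlings, while 0.137% and 0.166% of all genes were. At an unadjusted p under 0.05, edgeR found 2 members after flg22 and 0 in mock, against 4.65% and 4.60% of all genes. With the replicate block it found 5 members in each, against 13.3% after flg22 and 11.8% in mock of all genes. DESeq2 without the block also called 0 members as DEGs in each comparison. The median log2 fold change of a1a2 over Col-0 was -0.11 after flg22 and -0.14 in mock over the 19 members, and -0.00 and -0.01 over all genes. Without the block, the 2 members after flg22 were SUC5, which was higher in a1a2 (log2 fold change 0.78 ± 0.29 SE, edgeR adjusted p = 0.987), and STP7, which was lower (-0.27 ± 0.09 SE, edgeR adjusted p = 0.937). Of the 2 seed storage markers in the table, CRA1 was at 0 to 5.58 CPM in flg22-treated and 1.18 to 9.85 CPM in mock-treated a1a2. In Col-0, CRA1 was at most at 0.257 CPM after flg22 and 0.221 CPM in mock. The other marker, SESA1, was at most at 0.0504 CPM in a1a2 and 0.154 CPM in Col-0. The part of these markers in the value of SUC5 was not tested. SUC5 and STP7 were also the 2 members whose groups did not overlap after flg22, beside 8.00% of all genes. In mock-treated seedlings, 0 members had groups that did not overlap, beside 9.78% of all genes.

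**Figure D4:**
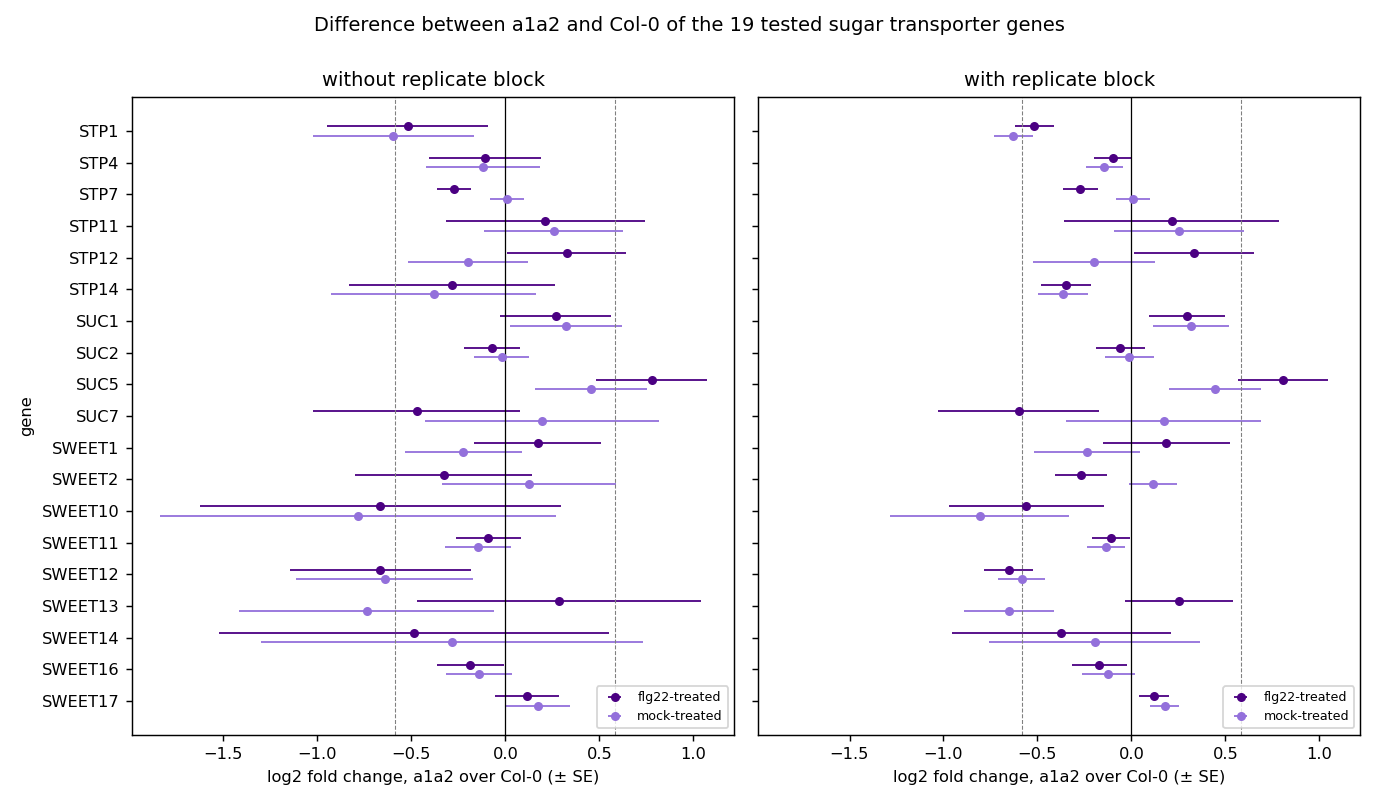
Log2 fold change of a1a2 over Col-0 for the 19 tested genes in flg22-treated (dark) and mock-treated (light) seedlings, without the replicate block on the left and with it on the right. Points are the fitted values, bars the SE and dashed lines the 1.5-fold limits; without the block no gene is a DEG, and with it STP1 in mock (-0.63) and SWEET12 after flg22 (-0.65) lie beyond the limit and pass the adjusted p.

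With the block, 1 member was a DEG in each genotype comparison, beside 0.827% of all genes after flg22 and 0.959% in mock. Both were lower in a1a2, as were 0.519% and 0.514% of all genes. SWEET12 was lower in flg22-treated a1a2, where its log2 fold change was -0.65 ± 0.13 (SE, edgeR adjusted p = 0.0389), compared with -0.67 ± 0.48 without the block (SE, edgeR adjusted p = 0.997). This call of SWEET12 was lost without flg22-treated replicate 1 (edgeR adjusted p = 0.133), 2 (0.183) or 3 (0.0575) of Col-0 and without flg22-treated replicate 2 (0.277) or 3 (0.132) of a1a2. In mock-treated seedlings, SWEET12 had a similar value just inside the 1.5-fold limit (-0.58 ± 0.12 SE, edgeR adjusted p = 0.0457), which it passed without mock-treated replicate 3 of a1a2 (-0.71, edgeR adjusted p = 0.0348). STP1 was lower in mock-treated a1a2 (-0.63 ± 0.10 SE, edgeR adjusted p = 0.0115), compared with -0.60 ± 0.43 without the block (SE, edgeR adjusted p = 1). The call of STP1 was lost without mock-treated replicate 2 (edgeR adjusted p = 0.0840) or 3 (0.0646) of Col-0 and without mock-treated replicate 2 (0.0641) or 3 (0.0654) of a1a2. After flg22 its blocked value was -0.52 ± 0.10 (SE, edgeR adjusted p = 0.0374), below 1.5-fold except without flg22-treated replicate 1 of a1a2 or replicate 3 of Col-0. Within replicate numbers 1, 2 and 3, the log2 ratio of a1a2 to Col-0 for STP1 was -0.41, -0.82 and -0.32 after flg22 and -0.49, -0.66 and -0.73 in mock. STP1 was thus lower in a1a2 in all 6 pairs, as were STP4, SWEET10 and SWEET12, while SUC1 and SWEET17 were higher in all 6. Some of these differences were very small, such as 143.04 against 143.08 CPM for STP4 in flg22-treated replicate 3. The sign was the same in the 3 replicate numbers for 9 members after flg22 and 10 in mock. How often this held over all genes was not counted.

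The flg22 response of no member differed between the genotypes when the interaction was tested. In edgeR, 0 of the 19 members passed, as did 0% of all genes, and 0 members had an unadjusted interaction p under 0.05, against 0.920% of all genes. The differences between the responses of a1a2 and Col-0 ranged from -0.67 for SUC7 to 1.03 for SWEET13 on the log2 scale, with SEs of 0.13 for STP7 to 1.46 for SWEET14. For STP4 the difference was 0.01 ± 0.42 and for SUC1 -0.05 ± 0.42 (SE), so in this fit a difference of the size of these SEs could not have been detected. The block lowered the SE of the STP4 change after flg22 from 0.31 to 0.10 in each genotype. What size of interaction the blocked fit could have detected was not determined, and 0% of all genes passed there. With the block, SWEET13 (0.91 ± 0.37 SE, unadjusted p = 0.0318) and STP7 (-0.28 ± 0.13 SE, unadjusted p = 0.0495) were the 2 members with an unadjusted p under 0.05, against 2.11% of all genes, and neither passed the edgeR adjustment (adjusted p = 1 for both).

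Genes of the same families that the table lists under other symbols were examined from a list of 11 genes. Of these, 9 were in the table and 7 were tested. After flg22, 2 of the 7 rose in both genotypes, beside 13.9% of all tested genes in each genotype. STP13, a hexose importer whose protein is a known target of the flagellin co-receptor BAK1, was at 215 ± 104 CPM in flg22-treated and 24.6 ± 14.1 CPM in mock-treated a1a2, and at 222 ± 102 against 29.9 ± 15.4 CPM in Col-0 (SD, n = 3). It rose 8.73-fold in a1a2 (log2 fold change 3.13 ± 0.65 SE, edgeR adjusted p = 0.00355) and 7.42-fold in Col-0 (2.89 ± 0.64 SE, edgeR adjusted p = 0.00547). SUC3, also known as SUT2, was at 136 ± 9.63 CPM in flg22-treated and 22.7 ± 3.09 CPM in mock-treated a1a2, and at 130 ± 6.38 against 22.2 ± 1.19 CPM in Col-0 (SD, n = 3). It rose 5.98-fold in a1a2 (2.58 ± 0.11 SE, edgeR adjusted p = 2.87e-08) and 5.85-fold in Col-0 (2.55 ± 0.11 SE, edgeR adjusted p = 4.08e-08). Both changed more than any of the 19 members. With the block, STP5 and SWEET15 were also DEGs, lower in a1a2 after flg22 (-1.21 and -1.01, edgeR adjusted p = 0.0148 and 0.0154).

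Other genes of sugar transport and cleavage were followed in a list of 38, of which 35 were in the table and 32 tested. After flg22, 8 of the 32 rose and 2 fell in a1a2, and 6 rose and 1 fell in Col-0. Over all tested genes, 13.9% rose in each genotype, and 7.29% fell in a1a2 and 7.06% in Col-0. ERD6, the founding member of a family of vacuolar sugar transporters, rose 10.8-fold in a1a2 (log2 fold change 3.43 ± 0.20 SE, edgeR adjusted p = 1.71e-07) and 10.2-fold in Col-0 (3.35 ± 0.20 SE, edgeR adjusted p = 2.51e-07). The polyol transporter genes PLT4, PLT5 and PLT6 rose by log2 fold changes of 1.46, 2.40 and 1.86 in a1a2 and 1.43, 2.42 and 1.86 in Col-0. CWINV1 and CWINV6, which encode cell wall proteins of the invertase family, rose by 0.68 and 0.91 in a1a2 and by 0.84 and 0.94 in Col-0 on the log2 scale. The hexokinase gene HXK2 fell, with -0.87 in a1a2 and -0.76 in Col-0. INT4, encoding an inositol transporter, and CWINV3 rose (0.66 and 0.65) and SFP2, an ERD6 relative, fell (-0.76) in a1a2, while none of these 3 was a DEG in Col-0 (0.45, 0.47 and -0.57), and the interaction passed for none of the 32 genes.

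Between the genotypes, 1 of these 32 genes differed in each treatment, beside 0.137% of all tested genes after flg22 and 0.166% in mock. SUS4, a sucrose synthase gene known to respond to low oxygen, was at 53.9 ± 20.3 CPM in flg22-treated a1a2 and 3.28 ± 0.995 CPM in flg22-treated Col-0, and at 43.3 ± 13.2 CPM in mock-treated a1a2 and 3.69 ± 1.31 CPM in mock-treated Col-0 (SD, n = 3). Its log2 fold change between a1a2 and Col-0 was 4.03 ± 0.37 after flg22 and 3.55 ± 0.36 in mock (SE, edgeR adjusted p = 7.85e-04 and 0.00187). With the block, SUS1, a second sucrose synthase gene, was also higher in a1a2 (edgeR adjusted p = 0.00440 after flg22 and 0.00915 in mock), compared with adjusted p-values of 0.164 and 0.327 without it. Its levels were 69.9 ± 28.5 CPM in flg22-treated a1a2 and 23.9 ± 5.35 CPM in flg22-treated Col-0, and 54.8 ± 16.9 CPM in mock-treated a1a2 and 22.4 ± 5.08 CPM in mock-treated Col-0 (SD, n = 3).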

How the data were processed

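Poly(A) RNA of whole seedlings was sequenced in 12 libraries, 3 for each of 4 groups. Per the labels, reads were aligned with HISAT to TAIR10. The authors deposited expected counts (estimated counts) per gene for 23739 genes, not scaled to library size, beside their group means, which were not used. Fractional entries, 7.5% of all, occurred in STP1 alone among the members. The counting tool, its annotation, its use of strand and its treatment of reads shared by several genes are not given in the sources used here.

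Values were rounded to integers. Filtering with filterByExpr left 20439 genes with 99.97% of the counts, which were scaled by TMM. CPM use the scaled library sizes. A quasi-likelihood model (edgeR 4.0.16, R 4.3.3, robust) described the 12 libraries by 4 group means, and p-values were adjusted by Benjamini-Hochberg over all tested genes. The thresholds for DEGs were an adjusted p of 0.05 and a 1.5-fold change, the interaction an adjusted p under 0.05. Tests were two-sided. Comparisons share libraries, so they are not independent.

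Replicate numbers come from the sample titles. The deviations of libraries from their group means correlated positively in all 18 pairs with the same number (r = 0.22 to 0.66, median 0.48) and ranged from -0.55 to 0.15 in the 36 pairs with different numbers, so the number was taken to pair the libraries and was fitted as a block in a second model. Replicates differed by more than counting noise, with a chi-square of at least 22.8 per degree of freedom. The labels do not say what the numbers share beyond the title.

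Alternatives were RLE scaling, library size alone, no filter, DESeq2 1.42.0 with and without the block, only the libraries of a comparison, no fold threshold, a test against 1.5-fold (glmTreat), unrounded counts and leaving out each library. Gene names, transcript lengths and overlaps came from the RefSeq annotation of TAIR10.1, which matched all 23739 identifiers. No coordinates or sequences are given, because its build is not the one named in the labels.

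Named genes were those called without the block in a pairwise comparison and SUC2, with values in every library, and the other members by ranges. Further members given per library (STP1, STP7, SUC5, SUC7, SWEET2, SWEET10, SWEET12, SWEET13 and SWEET17) were chosen after their values were seen. The members and gene lists were chosen with earlier results of these data known, so they are not independent evidence.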

Additional observations from a re-analysis of the deposited data

How the results depend on the processing

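Among the 8 changes of STP4, STP11, SUC1 and SWEET1 after flg22, 121 of 128 alternative values kept their direction and their call, 7 kept the direction only and 0 reversed. The 7 were STP11 in Col-0 and SWEET1 in a1a2 when tested against 1.5-fold, and the fits without single libraries given above. The count of members called after flg22 was 9 in a1a2 and 8 in Col-0 with the replicate block in edgeR, and 10 and 8 in DESeq2 with the replicate block, against 4 and 4 in edgeR and 5 and 5 in DESeq2 without it. Between the genotypes it was 1 after flg22 and 1 in mock with the block in both tools, against 0 and 0. In edgeR, the replicate block changed no other call of a member than those given above. The member that DESeq2 with the block called beyond these was STP9 in the comparison of flg22 against mock in a1a2, higher after flg22 (log2 fold change 2.07, DESeq2 adjusted p = 0.0369). STP9 was also called there by DESeq2 without the block (2.04, adjusted p = 0.0285) and by edgeR with no filter on low counts (2.00, adjusted p = 0.0308), where 5 members were called in a1a2 and 4 in Col-0. These calls rest on 1 to 11 counts of STP9 per a1a2 library. STP9 overlaps THX on the opposite strand, and THX was at group means of 122 to 141 CPM. The fifth member of DESeq2 without the block in Col-0 was SUC7 (1.62, adjusted p = 0.0342). Leaving out 1 library at a time gave 3 to 5 members in each flg22 comparison and 0 in each genotype comparison and the interaction. With the block, such fits, added after seeing the data, gave 7 to 10 members in a1a2 and 7 to 8 in Col-0 after flg22, 0 to 2 between the genotypes after flg22 and 0 to 1 in mock.

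Scaling by library size alone shifted the genome-wide median after flg22 by -0.25 on the log2 scale in both genotypes. The DEGs then split into 2207 higher and 3337 lower in a1a2 and 2243 and 3344 in Col-0, against 2835 and 1491 and 2843 and 1444 with TMM. Under it, STP4 and SUC1 still rose and STP11 and SWEET1 fell, SWEET17 was called lower in both genotypes (-0.79 in a1a2 and -0.72 in Col-0) and STP7 in a1a2 (-0.75). Over all genes, a test against 1.5-fold called 2512 in a1a2 and 2445 in Col-0, against 4326 and 4287. Between the genotypes after flg22, 28 genes were called, against 81 by DESeq2, 268 by DESeq2 with the block and 169 by edgeR with the block. In mock, 34 were called, against 103, 314 and 196, and 12 when only the libraries of the comparison were fitted. The interaction was passed by 0 genes and by 4 in DESeq2 with the block, none of them a member.

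The interaction needs all libraries, so it was not refitted on fewer groups. Promoter motifs were not examined. Members with under about 1 CPM rest on few counts, and 10 of the 29 did not pass the filter.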
